A study of Mus musculus with 30 samples.

Results

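The 6 long noncoding RNAs described here, *Malat1*, *Neat1*, *Kcnq1ot1*, *Meg3*, *Miat* and *Pvt1*, are transcripts that are mostly kept in the nucleus. They are 6 of the 47643 genes of the deposited table, and 6 of its 6943 lncRNA genes. They were chosen by the FPKM of male Cre-positive microglia and of mice with low numbers, in which the lncRNA class as a whole had been seen to rise. Since these choices read the groups of the table and 1 early mouse is a female WT, all comparisons of the members are given as a description without a test. RNA came from microglia sorted as CD11b+ CD45med cells from the perfused brains, without cerebellum and olfactory bulbs, of mice aged 3 months. The 30 libraries comprise *Bin1* flox/flox::*Cx3Cr1*-Cre+ mice (Homo, 5 males and 5 females), *Bin1* wt/flox::*Cx3Cr1*-Cre+ mice (Het, 6 males and 5 females) and *Bin1* wt/flox mice without Cre (WT, 5 males and 4 females). All groups thus carry a floxed *Bin1* allele. The recombinase is knocked into *Cx3cr1* and acts wherever that gene is active, so that each mouse with Cre had also lost at least 1 *Bin1* copy in microglia. In comparisons with WT, the loss of *Bin1*, the presence of Cre and the changed *Cx3cr1* allele therefore cannot be told apart. The label of each library ends in a mouse number. 2 male Het, 3 male Homo and 1 female WT mice had low numbers (early, the highest in WT-F-0122), and the other 24 mice had higher ones (late, the lowest in WT-M-0176). No male WT mouse was early.

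Nuclear retained lncRNAs act largely where they are made. *Malat1* sits in nuclear speckles, bodies that store splicing factors, and *Neat1* is the scaffold on which paraspeckles are built from RNA-binding proteins. *Kcnq1ot1* is made from the paternal chromosome only and silences its imprinted neighbours, *Meg3* is the maternally expressed RNA of another imprinted cluster and is abundant in neurons, *Miat* is a neuronal RNA of its own nuclear domain, and *Pvt1* is the neighbour of the growth gene *Myc*.

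*Malat1* and *Neat1* lie next to each other on the minus strand of chromosome 19, with 22035 bases between them (GRCm38, the build that is also called mm10). Their long transcripts are known to lack an ordinary poly(A) tail. RNase P cuts them, and the cut end folds into a triple helix in which U-rich stretches hold an A-rich one. The GENCODE transcripts of both hold this element, and it is shown here because it is what the pair shares in sequence. Below, capitals mark the 3 longest runs that the last 400 bases of both transcripts have in common, written 5′ to 3′.
*Malat1*, chr19:5795982-5796065, minus strand, exonic, 292 bases before the annotated transcript end: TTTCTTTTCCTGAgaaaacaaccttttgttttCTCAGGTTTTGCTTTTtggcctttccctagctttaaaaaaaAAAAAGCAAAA
*Neat1*, chr19:5824708-5824797, minus strand, exonic, at the annotated transcript end: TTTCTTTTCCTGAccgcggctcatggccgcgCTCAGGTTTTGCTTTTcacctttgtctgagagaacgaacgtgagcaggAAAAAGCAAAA
The run TTTCTTTTCCTGA occurred in the longest transcript of 14 of 16821 tested genes (0.0832%), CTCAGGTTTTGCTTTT in 2 (0.0119%) and AAAAAGCAAAA in 162 (0.963%). The whole transcript was searched on its strand, not only its last 400 bases. *Malat1* and *Neat1* were the 2 genes that held all 3 in this order. The runs were read from these 2 transcripts, so the count describes the pair and tests nothing.

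The cDNA kit named in the methods starts from an oligo(dT) primer, which can also sit down on A-rich stretches within an RNA, and the members differed in how many of these they hold. The longest run of A was 12 bases in *Malat1*, 7 in *Neat1*, 41 in *Kcnq1ot1*, 16 in *Meg3*, 4 in *Miat* and 9 in *Pvt1*. Runs of 10 or more occurred in 15.0% of the tested lncRNA genes (median length 1453 bases) and in 18.4% of the tested protein-coding genes (3287 bases), but per length they were more frequent in the lncRNA genes, with 0.101 against 0.0645 per kb. *Kcnq1ot1* held 10 such runs (0.107 per kb) and *Meg3* 6 (0.412 per kb), and *Malat1* held 1 (0.143 per kb), which ended 298 bases before the end of the transcript.

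The libraries matched their labels for the targeted gene with 2 exceptions. *Bin1* FPKM was 230.3 to 289.5 in WT, 117.3 to 164.3 in Het and 39.5 to 55.6 in Homo mice when the libraries labelled Het-F-0206 (42.7) and Het-M-0199 (51.8) were left aside. *Cx3cr1* was 1829 to 2344 in WT libraries and 609.98 to 1243 in the other Cre-positive libraries, but 13.9 in Het-F-0206. All 10 microglia markers were above 0 in every library. Absolute depth is unknown, since FPKM hold no totals, and relative depth, read from the steps between low values, was 0.669 to 1.41. In bulk RNA, fewer cells of a type and less RNA per cell cannot be told apart. Nothing in the labels says more of the replicates than that each is a numbered mouse.

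Levels of the members spanned 5 orders of magnitude on the FPKM scale, which is per length of transcript. *Malat1* (ENSMUSG00000092341, chr19:5795690-5802672) had a mean FPKM of 5165 over the 30 libraries and was the 6th gene of the whole table and the highest lncRNA. *Neat1* (ENSMUSG00000092274, chr19:5824708-5845478) followed with 21.1, *Pvt1* (ENSMUSG00000097039, chr15:62037986-62378096, plus strand) with 8.19, *Kcnq1ot1* (ENSMUSG00000101609, chr7:143203458-143296549, minus strand) with 0.652, *Meg3* (ENSMUSG00000021268, chr12:109541001-109571726, plus strand) with 0.214 and *Miat* (ENSMUSG00000097767, chr5:112213228-112229395, minus strand) with 0.0146. The highest FPKM of *Meg3* exceeded the highest of *Kcnq1ot1*, whereas the ranges of *Malat1*, *Neat1* and *Pvt1* were separate from those of the members below them, apart from *Neat1* and *Pvt1*, whose ranges of 12.4 to 51.1 and 4.64 to 16.9 crossed. *Miat* was below the mean FPKM of 0.1 that a gene needed to be tested, so 5 of the 6 members were.

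In males, the speckle RNA *Malat1* was at 2933, 3085, 3624, 4634 and 5752 FPKM in the WT libraries and at 5399, 5402, 7970, 11030 and 11580 in Homo. The 6 Het libraries ran from 2628 to 12821 with a median of 6431. Every Homo male lay above all WT males except WT-M-0258, and Het males reached from below the lowest WT male to above the highest Homo male. Homo males averaged 8276 ± 2964 (SD, n = 5), Het males 6927 ± 4142 (SD, n = 6) and WT males 4006 ± 1182 (SD, n = 5). The log2 fold change, taken here and below on scaled FPKM plus 0.1, was 0.93 (SE 0.30) in Homo and 0.52 (SE 0.29) in Het. Without Het-M-0199, the male Het library with *Bin1* in the Homo range, the Het value was 0.56, and those given below for the other members became 0.61 for *Neat1*, 0.85 for *Pvt1*, 0.06 for *Kcnq1ot1* and 0.06 for *Meg3*. In Homo males, 834 of the 16897 tested genes had a larger log2 fold change than *Malat1*.

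*Neat1*, the paraspeckle scaffold, was at 12.4, 14.7, 17.9, 20.5 and 21.3 FPKM in male WT and at 17.1, 17.7, 33.4, 38.8 and 50.7 in male Homo. Het males ran from 13.3 to 51.1 with a median of 26.7. The pattern was that of *Malat1*, with 2 Homo libraries inside the WT range and 3 above it. Its log2 fold change was 0.67 (SE 0.27) in Homo and 0.54 (SE 0.26) in Het.

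*Pvt1* read 4.64, 5.36, 5.92, 6.15 and 7.79 in male WT libraries and 6.46, 7.95, 9.25, 12.8 and 15.7 in Homo. In Het males it ran from 6.73 to 16.9 with a median of 11.2. A single Homo library and a single Het library fell inside the WT range. Its log2 fold change was 0.66 (SE 0.20) in Homo and 0.82 (SE 0.19) in Het, and it was the member with the larger value in Het than in Homo of the 3 with a difference beyond 0.5.

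For *Kcnq1ot1*, male WT libraries were at 0.411, 0.432, 0.679, 0.742 and 1.17 FPKM and male Homo libraries at 0.577, 0.688, 0.782, 0.906 and 1.03. Het males ran from 0.404 to 1.20 with a median of 0.724. The 3 groups overlapped across most of their ranges. Log2 fold changes were 0.17 (SE 0.26) in Homo and 0.06 (SE 0.25) in Het, and with quantile normalization these became -0.03 and -0.08. *Kcnq1ot1* lies within *Kcnq1* on the opposite strand, and the sources differ on strand, with a stranded kit in the filed protocol and an unstranded one in the methods of the study. Counting by strand is not stated, so that reads of the pair may not have been told apart. *Kcnq1* itself had a mean FPKM of 0.00481.

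*Meg3* stood at 0.00510 or above in all 5 male WT libraries, with a highest value of 0.293. In male Homo mice it was at 0.0151, 0.0298, 0.0504, 0.156 and 0.268, inside the same range. In male Het it was listed at 0 in 2 libraries and reached 1.23 in Het-M-0108, far above the others, the next being at 0.156. It had log2 fold changes of 0.01 (SE 0.70) in Homo and 0.14 (SE 0.67) in Het. *Miat* was listed at 0 in 18 of the 30 libraries, and its 3 highest values were 0.213 in Het-M-0108, 0.0515 in Homo-M-0097 and 0.0329 in a female WT library.

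**Figure D1:**
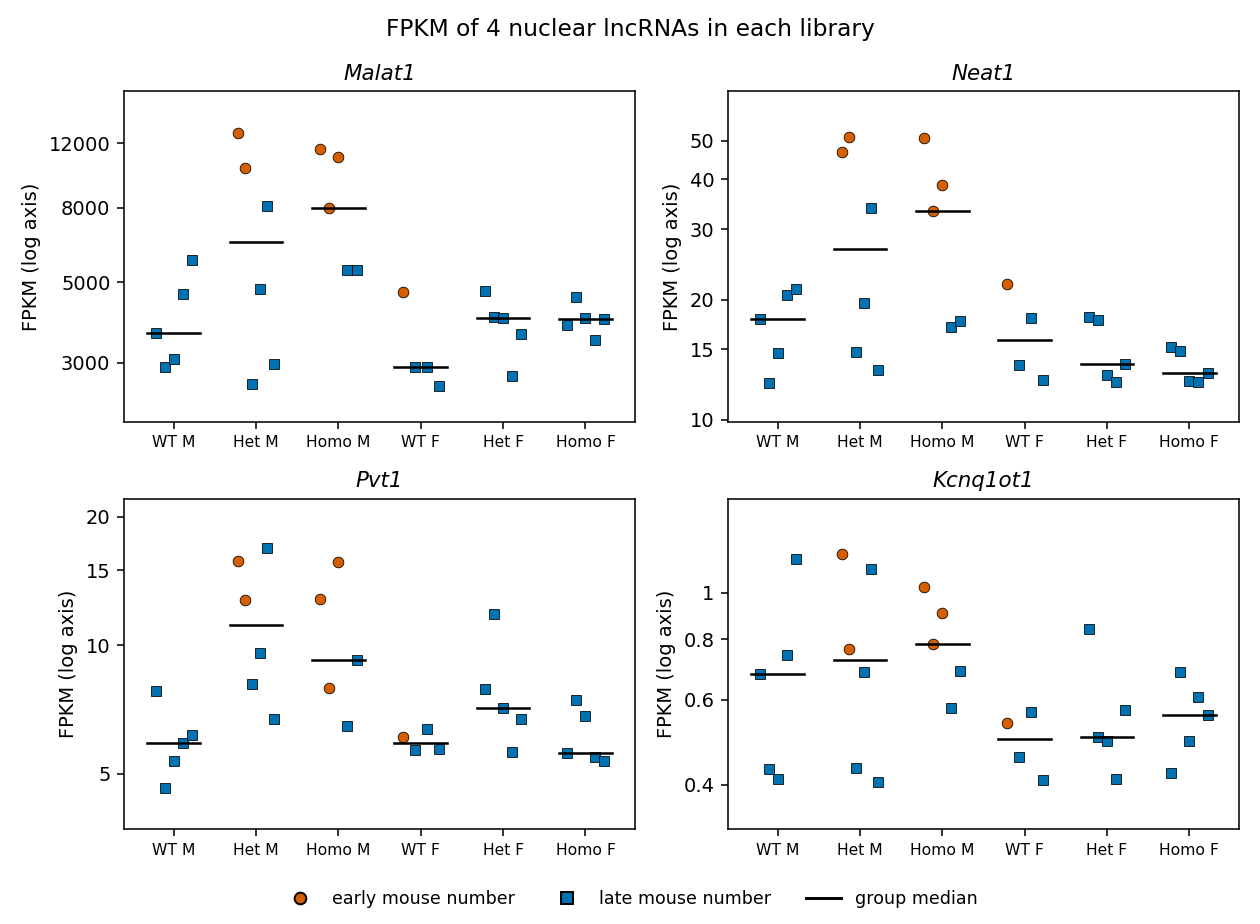
FPKM (log axes) of Malat1, Neat1, Pvt1 and Kcnq1ot1 in each of 30 libraries by group, with early mouse numbers as circles, late ones as squares and the group median as a bar. The early males stand at the top of the Het and Homo groups for Malat1 (7970 to 12821) and Neat1 (33.4 to 51.1), together with 1 late male Het library.

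No member was free of overlap between Homo and WT males, where 2.56% of the tested genes lay wholly higher and 1.37% wholly lower, nor between Het and WT males (0.515% and 0.326%). By limma, 1.81% of the tested genes were called in male Homo (adjusted p below 0.05 and fold change above 1.5) and 0.154% in male Het. The median log2 fold change of the 5 tested members was 0.66 in male Homo and 0.52 in male Het. Among the 1749 other tested lncRNA genes it was 0.42 and 0.27, and among 12592 protein-coding genes -0.02 in both. Of the other lncRNA genes, 62 rose and 2 fell in male Homo, where 1.17% of all tested genes were called higher and 0.645% lower. The rise of this class was known when the members were chosen, so these counts describe the class and test nothing about the members. Of 6 neutrophil markers, *S100a9*, *Ngp*, *Lcn2* and *Ltf*, which code for granule proteins, fell in male Homo (log2 fold changes of -5.97, -6.07, -4.73 and -3.48, limma adjusted p = 0.0436, 0.00988, 0.00756 and 0.0352), and the summed neutrophil markers were 43.9 to 347.4 FPKM in male WT and 0 to 80.8 in male Homo. Other marker lists had no called gene but moved with the comparison as well. All 4 choroid plexus markers had negative log2 fold changes in male Homo (median -2.23, summed FPKM 0.166 to 268.2 in WT and 0.351 to 22.8 in Homo), as had all 5 border macrophage markers (median -1.23, 12.5 to 38.8 against 9.68 to 22.8). All 6 astrocyte markers had positive ones (median 0.53, 68.7 to 79.6 against 84.7 to 129.1). The oligodendrocyte markers had a median of 0.54, with sums of 68.7 to 80.4 against 63.6 to 117.4. The part of these cells' RNA in the members' values was not tested.

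The male values of *Malat1* and *Neat1* followed the mouse number. Among the 11 Cre-positive males, *Malat1* was at 7970, 10259, 11030, 11580 and 12821 in the 5 early libraries and between 2628 and 8084 (median 5089) in the 6 late ones. *Neat1* was at 33.4, 38.8, 46.7, 50.7 and 51.1 in early and between 13.3 and 33.9 (median 17.4) in late libraries. A late library, Het-M-0203, with 8084 and 33.9, was the only one of the late libraries to reach the early range of either gene. The 24 libraries other than these 6 ran from 2586 to 5752 for *Malat1* and from 12.4 to 21.9 for *Neat1*, all below the 6. With genotype as a term, the early minus late difference was 1.05 (SE 0.32) on the log2 scale for *Malat1* and 1.14 (SE 0.19) for *Neat1*. Without Het-M-0203, left out after the data were seen, both differences were larger, at 1.17 for *Malat1* and 1.25 for *Neat1*, and without Het-M-0199 they were 1.07 and 1.15.

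The other members differed less between the number ranges. *Pvt1* was at 7.95, 12.7, 12.8, 15.7 and 15.8 FPKM in early libraries and from 6.46 to 16.9 (median 8.69) in late ones, with the highest value in the late Het-M-0203. Its difference was 0.42 (SE 0.22). *Kcnq1ot1* was at 0.764, 0.782, 0.906, 1.03 and 1.20 in early libraries and between 0.404 and 1.12 (median 0.631) in late ones, a difference of 0.39 (SE 0.26) that became -0.02 with quantile normalization. *Meg3* was listed at 0 in 1 early library and was at 0.0151, 0.0504, 0.268 and 1.23 in the others, against 0 to 0.156 in late ones. Its difference of 0.64 (SE 0.66) became -0.24 without Het-M-0108.

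The median difference of the 5 members by number range was 0.64, beside 0.61 for the other lncRNA genes, 0.10 for all tested genes and 0.00 for protein-coding genes. Among all tested genes 7.42% were called, 5.96% higher and 1.46% lower in early mice, and 4.57% were wholly higher and 1.14% wholly lower without overlap. No member was free of overlap here. All genes together moved by 0.23 with no scaling between libraries and by -0.04 with quantile normalization, and the members' median was then 0.69 and 0.43.

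Within the late mice alone, male Homo against WT gave log2 differences of 0.47 for *Malat1*, 0.03 for *Neat1*, 0.38 for *Pvt1*, -0.03 for *Kcnq1ot1* and 0.02 for *Meg3*. For male Het these were 0.09, 0.14, 0.69, -0.08 and -0.27. Without early mice, *Neat1* in both groups and *Malat1* in Het were thus at 0.14 or below, while *Pvt1* in Het kept most of its size. With the number range as a covariate, *Malat1* had 0.36, *Neat1* 0.07 and *Pvt1* 0.47 in male Homo. Only 2 male Homo mice remain among the late mice alone, and with no early male WT mouse, genotype and number range cannot be fully told apart in males.

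Other measures moved with the number range in the same libraries. The summed microglia markers were 17428 to 23444 FPKM in early and 19972 to 25770 in late Cre-positive males, all 10 markers had a negative difference (median -0.49) and none passed the test. Summed astrocyte markers were 90.6 to 129.1 against 65.9 to 102.6, with *Aldoc* and *Gja1* of 6 called higher by limma (log2 differences of 2.00 and 1.94, adjusted p = 0.0263 and 0.0419). The oligodendrocyte markers summed to 66.9 to 173.7 against 63.6 to 85.2. *Mbp* and *Mobp*, 2 myelin genes of the 6 on the list, were called higher by limma (1.31 and 1.89, adjusted p = 0.0345 and 0.0347). Only 3 of the 6 had a positive difference, with a median of 0.24 and a lowest of -0.45. *S100a8* of 6 neutrophil markers (4.82, adjusted p = 0.0464) and *Pf4* of 5 border macrophage markers (0.89, adjusted p = 0.0364) were also called higher by limma. Of 4 endothelial markers 2 were tested and went opposite ways. *Pecam1* was called lower (-0.61, limma adjusted p = 0.0273), and the other had a difference of 0.93 and was not called. *Cldn5* and *Ly6c1* were listed at 0 in at least 15 libraries. Summed neutrophil markers were 0.0923 to 187.9 in early and 0 to 13.04 in late males. The border macrophage markers summed to 15.8 to 22.8 in early and 9.60 to 14.2 in late males, with no overlap, and the choroid plexus markers to 1.21 to 22.8 and 0.351 to 7.36. Het-M-0203 had 19972 for the microglia markers, the lowest of the late males, and 102.6 for the astrocyte markers, the highest of them. Relative depth was 0.669 to 0.920 in the early and 0.727 to 1.41 in the late males, with Het-M-0203 at 0.727. The part of these measures in the members' values was not tested.

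In females *Malat1* was at 2586, 2931, 2933 and 4686 FPKM in WT, the highest being the early WT-F-0122. It was at 2765, 3605, 3982, 4021 and 4717 in Het and at 3464, 3815, 3963, 3973 and 4537 in Homo. The early WT female lay above all Homo females, so that the Homo and WT groups overlapped. The log2 fold change was 0.30 (SE 0.32) in Homo and 0.23 (SE 0.32) in Het. A covariate for number range made them 0.54 and 0.47.

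*Neat1* ran from 12.6 to 21.9 FPKM in female WT, from 12.4 to 18.1 in Het and from 12.4 to 15.2 in Homo. Here the WT group held the highest value, again from the early WT-F-0122. The log2 fold change was -0.25 (SE 0.29) in Homo and -0.13 (SE 0.29) in Het, and the latter turned to 0.00 without WT-F-0122.

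*Pvt1* was at 5.69, 5.72, 6.10 and 6.37 in female WT and from 5.36 to 7.46 in Homo, with Het at 5.62, 6.71, 7.14, 7.91 and 11.9. The value of 11.9 belongs to Het-F-0206, the library whose *Bin1* lies in the Homo range. Its log2 fold change was 0.02 (SE 0.21) in Homo and 0.34 (SE 0.21) in Het, and without Het-F-0206 the latter was 0.18. *Kcnq1ot1* ran from 0.408 to 0.566 in WT, 0.410 to 0.842 in Het and 0.422 to 0.686 in Homo, with log2 fold changes of 0.14 and 0.13 (SE 0.27 each).

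*Meg3* had the widest spread of the female values. It was listed at 0 in WT-F-0122 and at 0.0143, 0.0159 and 0.292 in the other WT females, and it was at 0.0138, 0.0189, 0.0725, 0.275 and 0.426 in Het. In Homo it was listed at 0 in 1 library and was at 0.163, 0.218, 0.254 and 2.14 in the others. The log2 fold change in Homo was 1.28 (SE 0.74), and 0.62 without Homo-F-0238, the library at 2.14. In Het it was 0.50 (SE 0.74), and 0.18 without Het-F-0206. At these low levels the values depended on the pseudocount, with 0.40 in Homo and 0.10 in Het at a pseudocount of 1 and 2.32 and 1.32 at 0.01.

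No member was without overlap between a female Cre-positive group and WT, where 1.65% of genes lay wholly higher and 0.663% wholly lower in Homo, and 1.58% and 0.633% in Het. The medians of the 5 members were 0.13 and 0.23, beside 0.06 and 0.02 for the other lncRNA genes. The difference between the male and the female log2 fold change in Homo was 0.64 (SE 0.44) for *Malat1*, 0.93 (SE 0.40) for *Neat1* and 0.63 (SE 0.29) for *Pvt1*. Among all genes, limma called 0 for this difference, with 9.29% at an unadjusted p below 0.05. All early Cre-positive mice were male, so sex and number range cannot be fully told apart in it. In late mice alone, the log2 fold change of *Malat1* was 0.47 in male and 0.47 in female Homo. For *Neat1* these were 0.03 and -0.12, and for *Pvt1* 0.38 and 0.02.

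**Figure D2:**
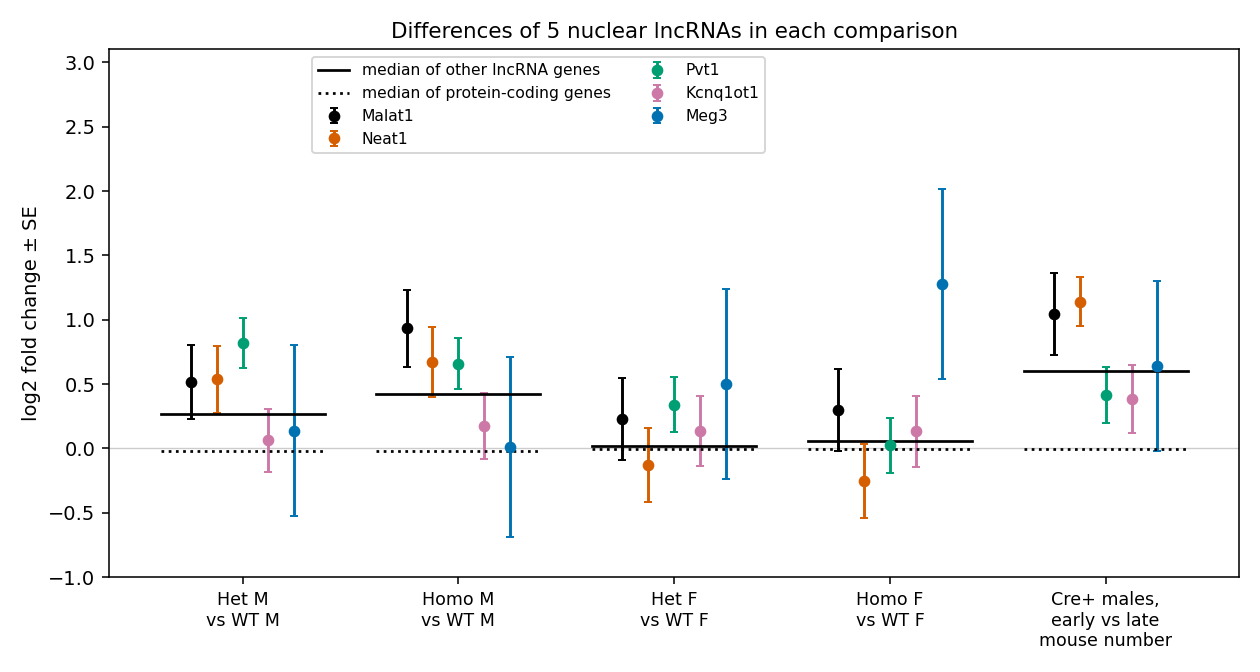
Log2 fold changes (points, with SE as error bars) of the 5 tested members in the 4 comparisons with WT and between early and late Cre-positive males, with the medians of other lncRNA genes (solid bars) and protein-coding genes (dotted bars). Malat1, Neat1 and Pvt1 are above 0.5 in both male comparisons, and in females no member except Meg3, with SE of 0.74, is beyond 0.5.

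Between Homo and Het mice, which share Cre and differ by their labels in the second *Bin1* copy, the members had log2 differences of 0.41 (*Malat1*), 0.14 (*Neat1*), -0.16 (*Pvt1*), 0.11 (*Kcnq1ot1*) and -0.13 (*Meg3*) in males. In females these were 0.07, -0.12, -0.31, 0.00 and 0.78. Without Het-M-0199 and Het-F-0206, the Het libraries with *Bin1* in the Homo range, they were 0.37, 0.07, -0.19, 0.11 and -0.05 in males and 0.09, -0.06, -0.16, -0.03 and 1.10 in females. Limma called 0.0118% of all genes in females and 0% in males, where 3.85% had an unadjusted p below 0.05.

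Libraries high in *Malat1* were mostly high in *Neat1* as well. The ratio of their FPKM was between 163.0 and 318.3, with a median of 238.8, whereas each gene alone varied over a wider span. Between early and late Cre-positive males the ratio overlapped, with 200.8 to 284.6 in early and 178.3 to 316.3 in late libraries. In females the ratio was 163.0 to 214.3 in WT, 223.0 to 307.4 in Het and 250.6 to 318.3 in Homo, so that both Cre-positive groups lay above WT. In males the groups overlapped, with 202.98 to 269.9 in WT, 178.3 to 274.3 in Het and 228.4 to 316.3 in Homo. The ratio was singled out after its values were seen, and no test is given. How many other pairs of genes have ratios that lie apart in this way was not computed.

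**Figure D3:**
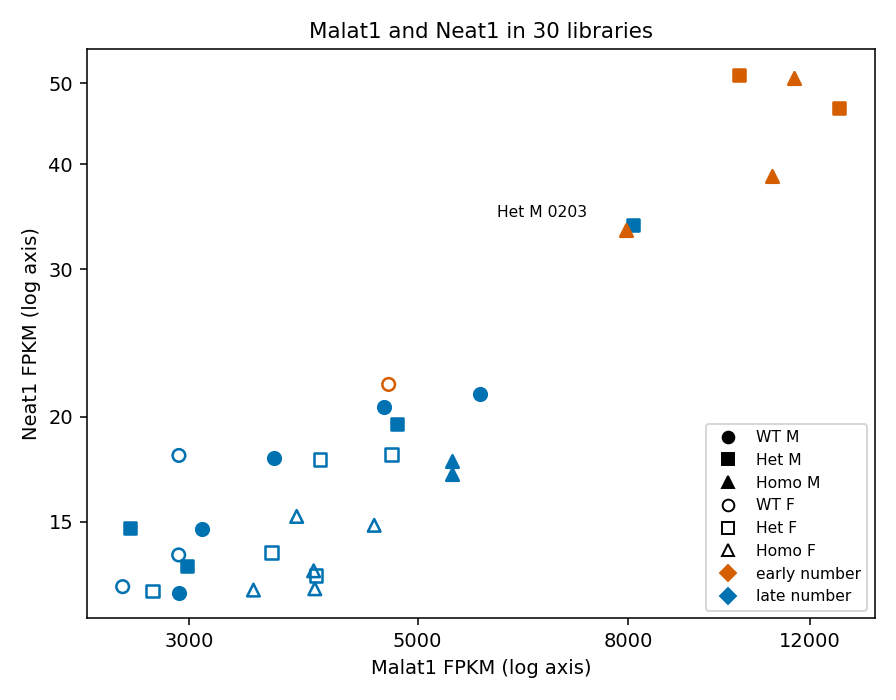
Malat1 FPKM against Neat1 FPKM (both log axes) in 30 libraries, with shape for genotype, filled symbols for males and colour for the mouse number range. The 5 early Cre-positive males and the late Het-M-0203 lie apart from the other 24 libraries at the upper right.

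The genes whose log2 levels followed each member most closely were found by the root mean square difference over the 30 libraries, after the mean of each gene was removed. For *Malat1*, whose own SD was 0.60, they were Gm37376 (0.14), *Arglu1* (0.18), which codes for a splicing regulator, and 5330438D12Rik (0.20). Gm37376 (chr19:5801941-5802393, plus strand) lies inside *Malat1* on the other strand and was at 1013 to 5304 FPKM, and if strand was not used, its reads and those of *Malat1* cannot be told apart. *Neat1* (SD 0.57) was followed by *Tia1* (0.19), which codes for an RNA-binding protein of stress granules, 5330438D12Rik (0.20) and *Arglu1* (0.20). *Kcnq1ot1* (SD 0.37) was nearest to *Son* (0.16), the gene of a core protein of nuclear speckles, *Wnk1* (0.16) and *Nlrp1b* (0.16). For *Pvt1* (SD 0.45) the nearest were *Setd6* (0.23), *Lat2* (0.25) and *Haghl* (0.25). *Meg3* (SD 1.12) had no close match, the nearest being the neuronal gene *Syt1* (0.85), then *Tubb4a* (0.86) and the neuronal gene *Stmn3* (0.87). *Malat1* and *Neat1* differed from each other by 0.24 on this measure, and the other pairs of members by at least 0.37.

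The 2 libraries with the highest *Meg3*, Homo-F-0238 (2.14 FPKM) and Het-M-0108 (1.23), also had the highest sums of 10 neuron markers, 22.7 and 23.5 FPKM. The other 28 libraries had 2.46 to 8.44, and *Meg3* was at most 0.426 in them. In Homo-F-0238 all 10 markers were above the highest of the other 28 libraries. In Het-M-0108 7 of 10 were, while *Rbfox3* (0.503 against a highest of 0.666), *Gad1* (0.531 against 0.567) and *Map2* (0.415 against 0.751) were not. The markers given by name were picked after their values were seen. *Snap25*, a protein of the synaptic release machinery, was at 13.2 in Homo-F-0238 and 15.7 in Het-M-0108, and at most 6.21 in the others. *Slc17a7*, the vesicular glutamate transporter, was at 1.16 and 0.912 against at most 0.305. The oligodendrocyte markers in these libraries summed to 101.8 and 173.7, against 61.0 to 117.4 in the other 28. Het-M-0108 also held the highest *Miat*. The part of neuronal RNA in the *Meg3* and *Miat* values was not tested.

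**Figure D4:**
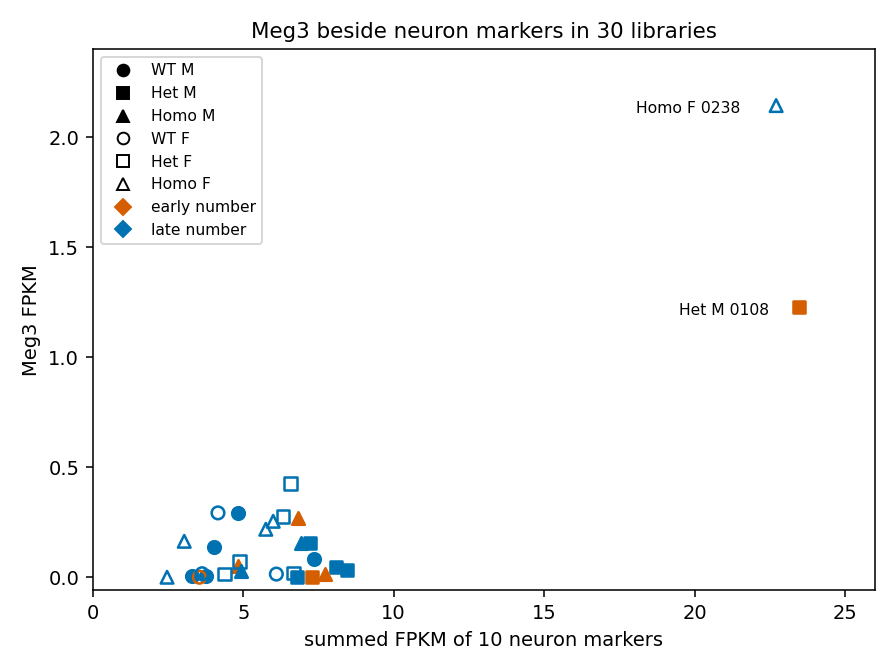
Meg3 FPKM against the summed FPKM of 10 neuron markers in 30 libraries, with the symbols of shape for genotype, fill for sex and colour for the mouse number range. Homo-F-0238 and Het-M-0108 stand at 22.7 and 23.5 on the marker axis, and the other 28 libraries at 8.44 or below.

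No gene that flanks a member on the chromosome was called. In a list of 35 neighbours, 26 were tested, and limma called 0 in each of the 4 comparisons with WT and between number ranges, where 6 (male Homo), 5 (male Het), 0 (female Homo), 1 (female Het) and 9 (early against late) had an unadjusted p below 0.05. Of all tested genes, 22.5%, 14.2%, 3.49%, 3.95% and 33.8% did. In the same order, limma called 1.81%, 0.154%, 0.071%, 0.13% and 7.42% of all tested genes. Beside *Malat1* and *Neat1*, the log2 differences of early against late males were 0.04 for *Dpf2*, -0.14 for *Tigd3*, 0.51 for *Slc25a45*, -0.46 for *Frmd8* and 0.25 for *Ltbp3*. *Slc25a45*, a mitochondrial carrier gene, had a limma adjusted p of 0.0208 but stayed under the fold threshold. In male Homo against WT, these 5 lay between -0.29 and 0.15.

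Of 10 genes in the imprinted domain around *Kcnq1ot1*, 8 were tested. *Cdkn1c*, a cell cycle inhibitor that the RNA silences on the paternal chromosome, had a log2 fold change of -0.30 in male Homo and 0.09 between early and late males. For *Slc22a18* these were -0.17 and -0.07, for *Nap1l4* -0.22 and -0.08, for *Trpm5* 0.07 and -0.30, for *Tssc4* -0.14 and 0.15, for *Cd81* -0.38 and -0.60, for *Ascl2* -0.60 and -0.20, and for *Tspan32* 0.23 and 0.16. None of the 8 passed the threshold. *Kcnq1* and *Phlda2* were too low to test.

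*Myc*, the neighbour of *Pvt1*, had a log2 fold change of 0.62 (limma adjusted p = 0.0707) in male Homo, 0.51 (adjusted p = 0.269) in male Het, 0.02 in female Homo and -0.04 between early and late males. *Fam84b* was at 0.23 in male Homo and 0.04 by number range, *Fam49b* at -0.16 and -0.55, *Asap1* at 0.21 and 0.47, and *Adcy8* at 0.20 and -0.03. *Fam49b* and *Asap1* had limma adjusted p of 0.0219 and 0.0300 between number ranges, under the fold threshold.

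Around *Miat*, the crystallin gene *Cryba4* was at 0.27 in male Homo and 0.17 by number range, *Crybb1* at -0.21 and -0.51 (limma adjusted p = 0.0312 for the latter, under the fold threshold), *Tpst2* at -0.22 and -0.33, *Tfip11* at -0.30 and -0.32, *Srrd* at 0.29 and 0.03, and *Hps4* at 0.08 and 0.17. Of 7 genes around *Meg3*, only *Wdr25* was high enough to test, at 0.04 and -0.05. The other noncoding RNAs of that cluster, *Rian* and *Mirg*, had mean FPKM of 0.0802 and 0.00872.

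Genes of paraspeckles, of nuclear speckles, of nuclear RNA decay and retention, and other lncRNAs were counted in 4 lists of 84 genes, of which 69 were tested. In male Homo against WT, 6 rose and 1 fell, where 1.17% of all tested genes rose and 0.645% fell. Among the risers were the paraspeckle list members *Rbm3* (log2 fold change 0.86, SE 0.18, adjusted p = 0.00988) and *Cirbp* (0.66, SE 0.18, adjusted p = 0.0439), which code for cold-inducible RNA-binding proteins, the speckle list members *Srrm1* (0.93, SE 0.21, adjusted p = 0.0179) and *Sf3b1* (0.67, SE 0.17, adjusted p = 0.0323), which code for splicing factors, and *C1d* (0.64, SE 0.14, adjusted p = 0.0145), a cofactor of the nuclear exosome, all by limma. The lncRNA Gm26917 fell by 1.35 (SE 0.38, adjusted p = 0.0489). Median log2 fold changes were 0.15 for 20 paraspeckle genes and 0.23 for 20 speckle genes. They were 0.06 for 16 genes of nuclear RNA decay and retention and 0.23 for 13 other lncRNAs, beside 0.03 for all genes. With no scaling the 4 medians were 0.15 to 0.31 beside 0.11 for all genes. Under quantile normalization they were 0.06 to 0.24 beside -0.02. Including the neighbours, 7 of 95 listed genes passed. That number was 1 to 3 when Homo-M-0093, Homo-M-0097, Homo-M-0109, WT-M-0176, WT-M-0177 or WT-M-0178 was left out. It was 12 without Homo-M-0189 or WT-M-0202 and 0 in late mice alone. How many of all tested genes passed in these fits is not given. Limma called 0 of the 69 in male Het, female Homo and female Het (0.154%, 0.071% and 0.13% of all tested genes), where 17, 2 and 1 had an unadjusted p below 0.05 (14.2%, 3.49% and 3.95% of all).

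Between early and late Cre-positive males, 14 of the 69 rose and 2 fell, where 5.96% of all tested genes rose and 1.46% fell. The speckle list held the most, with 7 of 20 higher. These were the SR protein genes *Srsf1* (0.81), *Srsf5* (0.89) and *Srsf11* (0.74), and *Srrm1* (0.88), *Pnn* (0.85), *Luc7l3* (0.88) and *Sf3b1* (0.66), all of which code for parts of the splicing machinery or its partners, with limma adjusted p between 0.0212 and 0.0253. Of 13 other lncRNAs, *Firre* (1.18, adjusted p = 0.0212), *Mir17hg* (0.96, adjusted p = 0.0364), *Ftx* (0.95, adjusted p = 0.0326) and *Dleu2* (0.82, adjusted p = 0.0253) rose, *Firre* and *Ftx* being X-linked nuclear RNAs, and Gm26917 fell by 0.80 (adjusted p = 0.0415). In the paraspeckle list *Rbmx* rose (0.65, adjusted p = 0.0219) and *Hnrnpa1* fell by 0.59 (adjusted p = 0.0317), 1 of 20 each way. *Zfc3h1* (0.71, adjusted p = 0.0253) and *Pabpn1* (0.63, adjusted p = 0.0219), which take part in the decay of polyadenylated RNA in the nucleus, rose among 16 genes of decay and retention.

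The medians by number range were 0.53 for the other lncRNAs, 0.44 for the speckle and 0.15 for the paraspeckle list. For the decay and retention list the median was 0.19, and for all genes it was 0.10. With no scaling these lists had 0.29 to 0.67 beside 0.23 for all genes. Under quantile normalization they had 0.15 to 0.58 beside -0.04. The 26 neighbours had a median of -0.03. Together with the neighbours, 16 of 95 genes passed. That count was 0 without Het-M-0100, Het-M-0108 or Homo-M-0189, 5 without Homo-M-0093, 6 without Het-M-0210, 10 without Homo-M-0190 and 25 without Het-M-0203. The share of all tested genes called in these fits is not given, so the counts may move with all genes. The cell type markers and depths given above for these libraries moved with this comparison too, and their part in it was not tested.

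**Figure D5:**
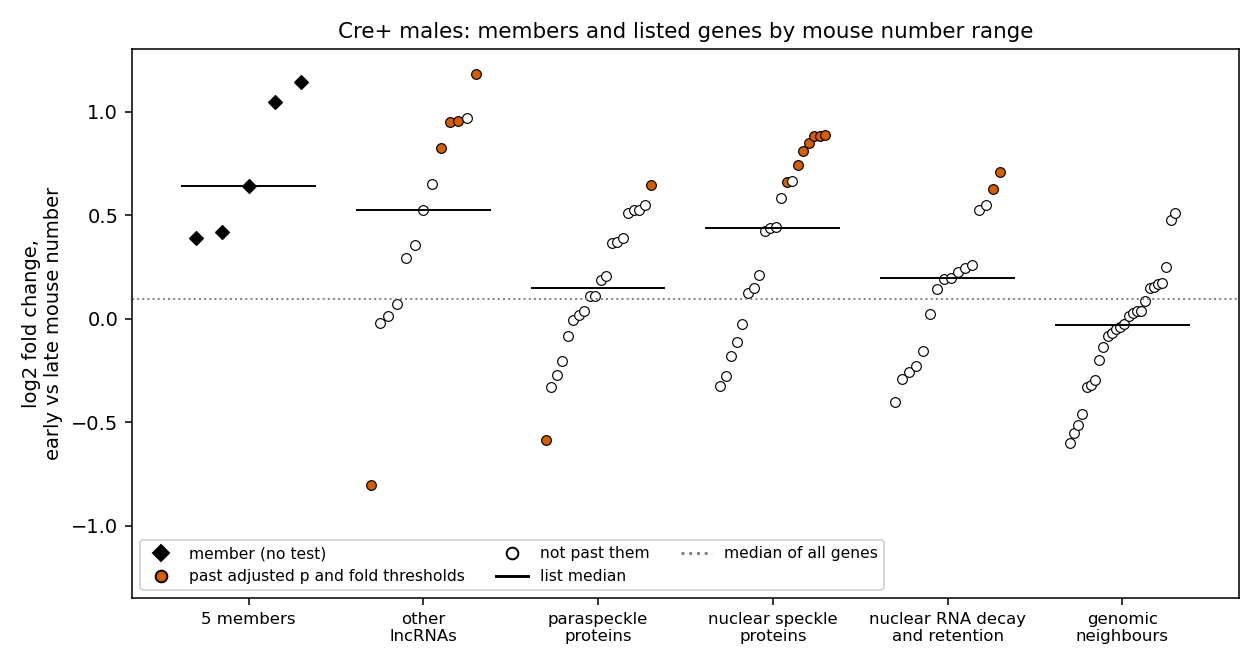
Log2 differences of early against late Cre-positive males for the 5 tested members (diamonds, no test) and for the genes of the 4 nuclear lists and the genomic neighbours (circles, filled where limma passed both thresholds), with the list medians as bars and the median of all genes (0.10) as a dotted line. The speckle list has 7 of 20 genes called higher, and no neighbour is called.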

How the data were processed

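The authors aligned reads of sorted microglia to mm10, estimated gene abundance with RSEM against an Ensembl gene model and deposited FPKM, that is fragments scaled to transcript length and to the mapped fragments of a library, on a linear scale. The filed protocol describes cultured microglia and stranded TruSeq libraries as well, and the methods of the study were followed here. Of the columns, 30 were used, and 6 that match no listed sample were not. The methods of the study state that 6 samples were removed for few uniquely mapped read pairs and high duplication. Whether these are the 6 unused columns is not stated. In place of the study's own fit, which needs counts, limma 3.58.1 in R 4.3.3 was used. FPKM were scaled by the median of ratios (over genes averaging 1 FPKM or more), 0.1 was added, and log2 values of the 16897 genes averaging 0.1 FPKM or more were fitted over all 6 groups with an intensity trend. A fold change on this scale is understated for low genes. Called genes had a Benjamini-Hochberg adjusted p below 0.05 over all genes and a fold change above 1.5. Number ranges were compared in 11 Cre-positive males with genotype as a term. The Homo and Het comparisons of a sex share their WT libraries. P-values measure the spread between numbered mice.

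The members and lists were chosen with earlier results of these data known. No p is given for a member. Named were the members, *Bin1* and *Cx3cr1*, genes of the lists past the threshold, the tested neighbours and the 3 genes nearest to each member. The rule named 4 genes at most per list and comparison, and all that passed are given for the speckle and lncRNA lists. Some genes of the lists are counted but not reported by name here. Transcripts and loci come from GENCODE M21 (GRCm38). On simulated data with 200 of 16897 genes changed 2.5-fold, 63.5% were recovered with 3 false calls in the female Homo comparison and 59.5% with 6 false calls between number ranges. Relative depth was recovered within 0.0204% on simulated data with whole fragments and a fixed length per gene. The deposited values, estimated with RSEM, need not have these, so the error of their relative depth is not known. Results were recomputed with a pseudocount of 0.01 or 1, with a filter at 1 FPKM or none, without scaling, with quantile normalization, with array weights, on the compared groups alone, with the number range as covariate, in late mice alone, without the fold threshold and without single libraries. Those without Het-M-0203 and without Het-F-0206 alone were added after the data were seen.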

Additional observations from a re-analysis of the deposited data

Results flagged for a closer look

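Of the 36 combinations of a member and a group, 7 held a library set apart from the rest. Its gap to its nearest neighbour took up more of the group's range than Dixon's 95% limit allows. For normal values about 1 in 20 would pass this limit. Values of *Meg3* and *Miat* near or at 0 do not meet that condition, so the flags describe and test nothing. *Malat1* was at 4686 FPKM in WT-F-0122, the one early female, and at most at 2933 in the other 3 female WT libraries. *Meg3* was at 1.23 in Het-M-0108 (next 0.156), at 2.14 in Homo-F-0238 (next 0.254) and at 0.292 in WT-F-0192 (next 0.0159). *Miat* was at 0.213 in Het-M-0108 (next 0.0217), at 0.0515 in Homo-M-0097 (next 0.0125) and at 0.0118 in WT-M-0176, where the other 4 male WT libraries were listed at 0. *Meg3* and *Miat* stood apart in the same library, Het-M-0108, which also has the highest sum of neuron markers.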

How the results depend on the processing

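No paired analysis was possible because each mouse number belongs to 1 animal of 1 group. The median of the members was 0.66 in male Homo and fell to 0.0739 with the number range as a covariate and to 0.0268 in late mice alone, in male Het it was 0.0875 in late mice alone, and between number ranges it was 1.05 with a filter at 1 FPKM, where *Meg3* and *Kcnq1ot1* are no longer tested. Of the 95 listed genes, male Homo gave 3 with no filter, 11 with array weights and 0 with only the groups compared, with the covariate or in late mice alone, and number ranges gave 0 with no filter, 31 with no fold threshold and 25 without Het-M-0203. Leaving out 1 library gave 1 to 12 in male Homo and 0 to 25 between number ranges. In male Het it gave 0 to 1, with 1 called without Het-M-0197 or WT-M-0202. For none of these settings is the share of all tested genes given beside the count. Signs turned in females for values near 0: *Neat1* in Het was 0.12 with the covariate, 0.00468 in late mice alone and -0.24 to 0.00468 over the libraries left out, the highest without WT-F-0122, *Kcnq1ot1* in Homo against Het was 0.0130 with array weights and -0.0767 to 0.13 over the libraries left out, *Malat1* there was -0.0279 to 0.14, and *Pvt1* in Homo against WT was -0.0361 to 0.0667. The cause was not tested in these cases. Absolute depth is unknown, which limits *Meg3* and *Miat*, whose values are near or at 0 in many libraries.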
